A study of Mus musculus with 8 samples.

Results

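The mitochondrial genome genes were taken as the rows of the islet count table whose mouse symbol starts with mt-. They were 37 of the 53012 genes in the table, made up of 13 protein genes, 2 rRNA genes and 22 tRNA genes, and they were all of the 37 genes that the GENCODE M21 annotation places on chrM. Bulk RNA-seq was performed on islets from 8 mice aged 17 months, with 1 library per mouse and 4 mice per group. In every mouse both Igf1r alleles were floxed at exon 3 (Igf1r flox/flox). The βIgf1r group (M148, M151, M152 and M153) was Ins1-CreERT2-/- and received corn oil. The βIgf1rKD group (M145, M146, M149 and M150) was Ins1-CreERT2+/- and received tamoxifen in corn oil at 0.075 mg per g body weight on 5 consecutive days, and islets were collected 7 days after the last dose. The Cre acts in β-cells and is inducible by tamoxifen, so the groups differed in Cre and in tamoxifen as well as in Igf1r, and these cannot be told apart. Both sexes were used, and the labels do not mark the sex of each mouse. Xist, which is transcribed from the inactive X chromosome of females, was at a log2 CPM of 8.08 to 8.68 in M151 of the βIgf1r group and in M145, M146 and M150 of the βIgf1rKD group, and at 0.37 to 2.76 in the other 4 mice, so the mix of sexes was uneven between the groups. In whole islets, fewer cells of a type and less RNA per cell also cannot be told apart.

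The mitochondrial genome is a small circle present in many copies in each cell. Its RNAs are made as long transcripts from both strands by a dedicated polymerase, and the tRNAs that lie between the other genes mark the places where these transcripts are cut. The protein genes all encode subunits of the respiratory chain or ATP synthase, which β-cells use to turn glucose oxidation into the ATP signal that triggers insulin release. All other proteins of mitochondria, including those that copy, transcribe and translate this genome, are encoded in the nucleus.

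Features of the sequence decided how far a count could be assigned to 1 gene. The genes are packed without introns, and some reading frames overlap. The last bases of mt-Atp8, read from the GENCODE M21 transcripts of GRCm38, are the first bases of mt-Atp6, and the 43 shared bases are in capitals below (mt-Atp8, chrM:7867-7969, plus strand, and mt-Atp6, chrM:7927-8029, plus strand).
mt-Atp8: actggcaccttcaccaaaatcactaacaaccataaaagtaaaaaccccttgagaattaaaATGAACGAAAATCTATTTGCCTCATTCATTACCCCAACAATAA
mt-Atp6: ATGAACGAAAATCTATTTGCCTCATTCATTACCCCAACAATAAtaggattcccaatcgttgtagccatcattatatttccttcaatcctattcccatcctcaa
The capitals are 43 of the 204 bases of mt-Atp8, so counts of this short gene are the least separable from those of its neighbour. In the same way mt-Nd4l and mt-Nd4 share 7 bases, and mt-Nd5 and mt-Nd6 share 14 bases on opposite strands.

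A second overlap lies outside the mitochondrial genome. A block of 7 pseudogenes on chromosome 1 (chr1:24611535-24616197, minus strand, GRCm38) repeats mt-Co1 to mt-Nd4, and at least 97.2% of the 31-base words of each pseudogene also occur in a gene of chrM. The first 60 bases of mt-Co2 (chrM:7013-7072, plus strand) and of its copy Gm28661 (chr1:24615506-24615565, minus strand) are shown because no base separates them. The 60 bases of mt-Co1 (chrM:6381-6440, plus strand) and of its copy Gm29216 (chr1:24616138-24616197, minus strand) hold 6 mismatches, which are in capitals.
mt-Co2: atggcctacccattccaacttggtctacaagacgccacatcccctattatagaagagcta
Gm28661: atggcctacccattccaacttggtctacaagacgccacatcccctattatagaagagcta
mt-Co1: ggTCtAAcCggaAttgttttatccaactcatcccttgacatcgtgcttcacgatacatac
Gm29216: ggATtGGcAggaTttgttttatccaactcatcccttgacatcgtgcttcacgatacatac
Gm28661 matched mt-Co2 at all 681 aligned bases, and Gm29216 differed from mt-Co1 at these 6 of 492 bases. A read inside an identical stretch carries no base that tells the copy from the chrM gene, so the division of counts between them is an estimate made by the quantification tool.

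Libraries held 21633925 to 42391106 estimated counts. All 8 β-cell markers and all 15 acinar markers were above 0 in every mouse. The summed share of β-cell markers ranged from 16.2% to 22.4% in βIgf1r islets and from 10.2% to 22.0% in βIgf1rKD islets, and that of acinar markers from 2.56% to 18.2% and from 5.36% to 21.1%. Igf1r was 46.8, 47.9, 60.8 and 58.6 CPM (counts scaled to a common library size by TMM) in the βIgf1r mice M148, M151, M152 and M153, and 46.9, 50.1, 57.8 and 47.7 CPM in the βIgf1rKD mice M145, M146, M149 and M150, so the groups overlapped (log2 fold change -0.08 ± 0.11, SE, edgeR adjusted p = 0.988). The counts are per gene and do not separate transcripts with and without exon 3. The paper reported lower Igf1r mRNA by qPCR and lower IGF1R protein by Western blot in βIgf1rKD islets, in sets of mice with other age ranges.

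The share of each library that came from the mitochondrial genome differed more between mice of a group than between groups. It was 3.87%, 3.22%, 0.492% and 2.54% in M148, M151, M152 and M153, and 2.60%, 0.809%, 2.02% and 2.57% in M145, M146, M149 and M150. M152 of the βIgf1r group and M146 of the βIgf1rKD group each lay far below the other mice of their group, and the remaining 6 mice lay between 2.02% and 3.87%. The mean share was 2.53% ± 1.46 (SD, n = 4) in βIgf1r islets and 2.0003% ± 0.838 (SD, n = 4) in βIgf1rKD islets, a difference of -0.53 percentage points that was smaller than the spread within either group. Without M152 and M146, a choice made after these values were seen, the means were 3.21% ± 0.665 (SD, n = 3) and 2.40% ± 0.327 (SD, n = 3), a difference of -0.81 points with overlapping mice. In these 6 mice the groups did not overlap in acinar markers (2.56%, 4.31% and 11.1% against 19.0%, 21.1% and 14.6%). They also did not overlap in β-cell markers (22.4%, 17.8% and 19.8% against 10.2%, 11.7% and 13.8%). In these 6 mice, group and tissue make-up therefore cannot be told apart. Leaving out the acinar markers from the totals gave a difference of -0.29 points over the 8 mice, and leaving out Ins1 and Ins2 gave -0.81 points. Without M152 and M146 these differences were -0.47 and -1.23 points.

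**Figure D1:**
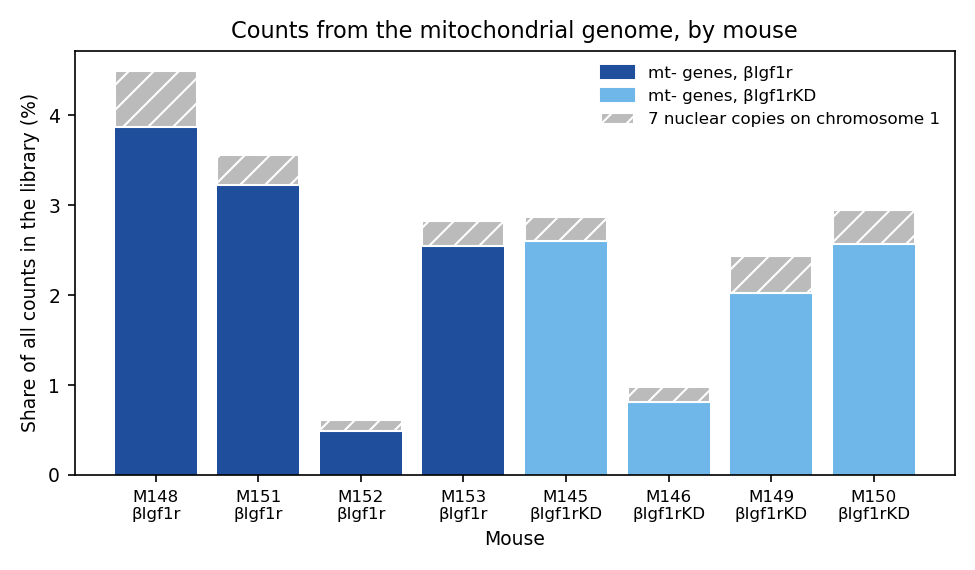
Share of all estimated counts (%) in mt- genes for each of the 8 mice, with the 7 copies on chromosome 1 stacked in grey. M152 (0.492%) and M146 (0.809%) stand below the other 6 mice, which hold 2.02% to 3.87%, and the copies add 0.116% to 0.621% of a library.

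Nearly all of these counts were mRNA. The 13 protein genes held 0.483% to 3.84% of a library, the 2 rRNA genes 0.00955% to 0.0852%, and the 22 tRNA genes at most 5.58e-05%. The tRNA genes, 59 to 75 bases long, had 68 counts over all mice together, and 12 of the 22 had none in any mouse. The highest was mt-Tl1, the tRNA for leucine next to mt-Rnr2, with 2 to 7 counts per mouse, and mt-Tc and mt-Tm reached 5 and 4 counts. A count of 0 allows up to 3 counts, or 0.0739 to 0.142 CPM depending on the library, and these limits cover counting error only. The libraries were prepared with a kit that selects polyadenylated RNA, so these values do not describe tRNA levels in islets.

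Levels of different genes were compared as CPM per kilobase of gene length, as the median of the 8 mice. The complex IV subunits mt-Co3 and mt-Co1 stood highest at 5228 and 4824 CPM per kb, and mt-Co3 was above mt-Co1 in 3 of 8 mice, so their order was not fixed. They were followed by mt-Atp6 of ATP synthase at 3474, mt-Cytb of complex III at 2564, the third complex IV subunit mt-Co2 at 2364 and mt-Atp8 of ATP synthase at 2023 CPM per kb. The complex I subunits came next, with 1756 for mt-Nd1, 1481 for mt-Nd4, 1196 for mt-Nd2, 919 for mt-Nd4l, 913 for mt-Nd5 and 379 for mt-Nd3. The rRNAs of the large and small mitochondrial ribosomal subunits, mt-Rnr2 and mt-Rnr1, were at 113 and 78.8 CPM per kb in these poly(A)-selected libraries. The lowest was mt-Nd6 at 18.1 CPM per kb, the complex I subunit encoded on the minus strand (chrM:13552-14070), while the other 12 protein genes lie on the plus strand. The place of mt-Co2 and mt-Nd3 in this order depended on how counts were divided with their copies on chromosome 1: with the copies added, mt-Co2 was at 4935 CPM per kb, next after mt-Co1 (5483) and mt-Co3 (5454), and mt-Nd3 was at 975, above mt-Nd4l and mt-Nd5.

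The ranges over the 8 mice overlapped for every pair of neighbours in this order, so the order was read within mice. In 8 of 8 mice mt-Co1 was above mt-Atp6, mt-Nd1 above mt-Nd4, mt-Nd4 above mt-Nd2, mt-Nd5 above mt-Nd3, mt-Rnr2 above mt-Rnr1 and mt-Rnr1 above mt-Nd6. The other neighbours changed places in at least 1 mouse, for example mt-Cytb and mt-Co2, where mt-Cytb was higher in 4 of 8 mice. These comparisons use the counts as deposited, and those with mt-Co2 and mt-Nd3 depended on the division with the copies. With the copies added, mt-Nd3 had a median of 975 and a highest value of 1310 CPM per kb, against 913 and 1064 for mt-Nd5. The median of mt-Co2 was then 4935 CPM per kb, against 2564 for mt-Cytb.

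**Figure D2:**
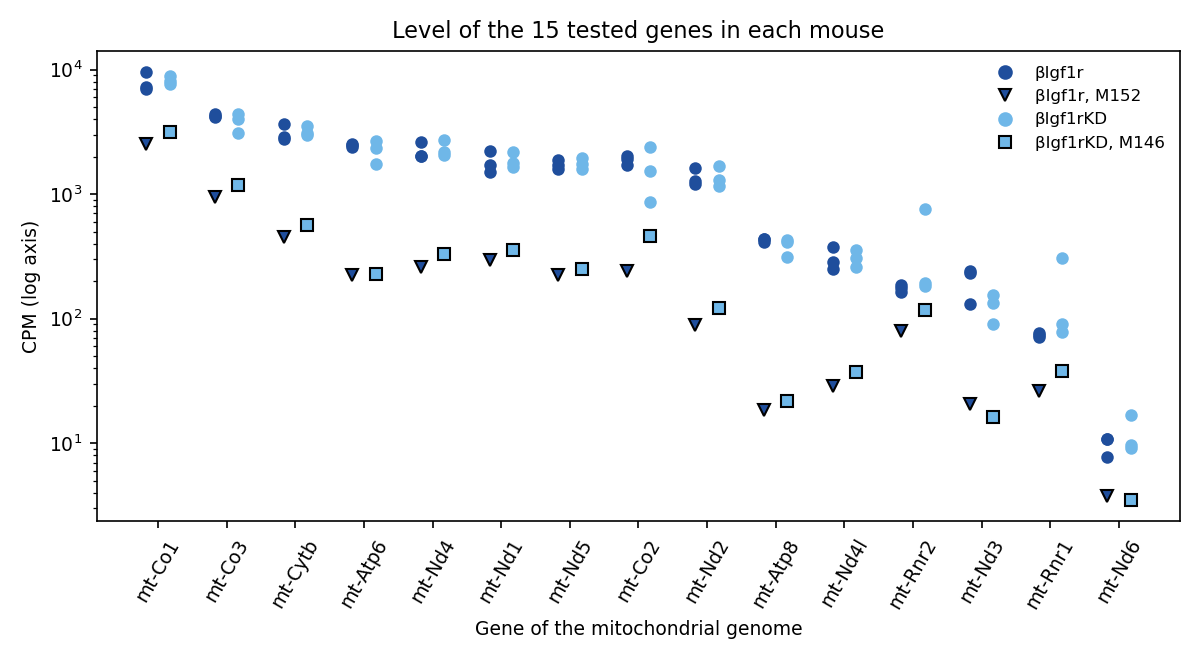
Level of the 13 mRNA and 2 rRNA genes in each mouse, in CPM on a log axis, with βIgf1r mice in dark blue and βIgf1rKD mice in light blue. M152 (triangles) and M146 (squares) are the lowest mice for each gene, and 1 βIgf1rKD mouse, M145, lies above all others for mt-Rnr1 (307 CPM) and mt-Rnr2 (754 CPM).

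The group comparison set the islets of mice with the induced β-cell Cre against those without it, and the per-gene Igf1r counts of these libraries overlapped. The 13 mRNA and 2 rRNA genes passed the filter on low counts and the 22 tRNA genes did not. None of the 15 passed edgeR's quasi-likelihood test between the groups: 0 had an adjusted p under 0.05 (background 0.0% of 15474 genes), 0 had an unadjusted p under 0.05 (background 4.12%) and 0 had groups that did not overlap (background 2.22%). DESeq2 gave 0 of the 15 an adjusted p under 0.05, against 8 of all genes in its fit. It also gave 0 of the 15 an unadjusted p under 0.05, and the share of all genes at that threshold was not counted. By sign, 10 genes had a higher and 5 a lower mean in βIgf1rKD islets, and their median log2 fold change was 0.04, against 0.01 over all genes tested. These values were scaled by TMM factors of 1.23, 1.22, 0.901 and 0.976 in M148, M151, M152 and M153. The factors were 0.803, 1.18, 0.835 and 0.957 in M145, M146, M149 and M150. The library shares, with a lower mean in βIgf1rKD islets, were not scaled in this way, so the sign of small differences depended on the scaling. The adjusted p values lay between 0.986 and 0.9996. The median standard error of the 15 genes was 0.65 on the log2 scale, against 0.14 over all genes. In 4 against 4 mice, even log2 fold changes of 1.05 for mt-Rnr1 and 1.04 for mt-Rnr2 had unadjusted edgeR p values of 0.104 and 0.0868. The absence of calls therefore does not exclude differences of that size.

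Of the complex I genes, mt-Nd1 was at 2203, 1516, 295 and 1700 CPM in M148, M151, M152 and M153, and at 2168, 359, 1662 and 1775 CPM in M145, M146, M149 and M150. Except for M152 and M146, the groups covered the same range. Its log2 fold change was 0.06 ± 0.62 (SE, edgeR adjusted p = 0.9996). The same held for mt-Nd2 (89.3 to 1683 CPM, log2 fold change 0.03 ± 0.83), mt-Nd4 (261 to 2726 CPM, 0.08 ± 0.70), mt-Nd4l (28.6 to 374 CPM, 0.04 ± 0.74) and mt-Nd5 (223 to 1941 CPM, 0.03 ± 0.68), with SE after each value. Without M152 and M146 the log2 fold changes of these genes stayed between 0.02 and 0.07, with SEs of 0.16 to 0.20.

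The lowest mRNA, mt-Nd6, was at 10.9, 7.74, 3.81 and 10.8 CPM in the βIgf1r mice and 9.72, 3.53, 17.01 and 9.09 CPM in the βIgf1rKD mice, in the same order of mice. The highest value, in M149, was not shared by other βIgf1rKD mice. Its log2 fold change was 0.24 ± 0.44 (SE, edgeR adjusted p = 0.988).

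The complex I subunit mt-Nd3 had the largest fold change of the mRNAs. It was at 130, 234, 20.7 and 241 CPM in M148, M151, M152 and M153 and at 154, 16.3, 91.4 and 134 CPM in M145, M146, M149 and M150. The highest values, in M151 and M153, were both from βIgf1r mice, while M148 lay among the βIgf1rKD mice. The log2 fold change was -0.66 ± 0.74 (SE, edgeR adjusted p = 0.987). Without M152 and M146 it was -0.67 ± 0.27 (SE, edgeR adjusted p = 0.603). It was then the 1 gene of the 15 with an unadjusted p under 0.05, against 7.79% of all genes, and no gene of the 15 passed after adjustment, against 0.0193% of all genes. This gene divided its counts with the copy Gm28438. With the copy added the pair was at 380, 357, 60.7 and 456 CPM in the βIgf1r mice and 347, 58.6, 294 and 331 CPM in the βIgf1rKD mice, with a log2 fold change of -0.28 ± 0.62 (SE). Without M152 and M146 the 3 βIgf1rKD values of the pair lay below the 3 βIgf1r values, where 13.5% of all genes had groups that did not overlap. Acinar and β-cell marker shares did not overlap between the groups without these mice either.

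For complex III, mt-Cytb was at 3669, 2874, 454 and 2774 CPM in M148, M151, M152 and M153 and at 3534, 568, 2991 and 3107 CPM in M145, M146, M149 and M150 (log2 fold change 0.06 ± 0.65, SE, edgeR adjusted p = 0.9996). The 3 upper mice of each group interleaved.

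Of the complex IV genes, mt-Co1, the catalytic subunit, was at 9530, 7207, 2543 and 6966 CPM in the βIgf1r mice and 8900, 3135, 8040 and 7698 CPM in the βIgf1rKD mice. It varied least of the mRNAs, 3.75-fold from the lowest to the highest mouse, and its log2 fold change was 0.08 ± 0.44 (SE, edgeR adjusted p = 0.997). For mt-Co3 the values were 4436, 4168, 954 and 4238 CPM against 4397, 1178, 3091 and 4029 CPM (log2 fold change -0.12 ± 0.51, SE).
The copper-binding subunit mt-Co2 was at 1715, 2017, 243 and 1926 CPM in the βIgf1r mice and 2381, 465, 872 and 1519 CPM in the βIgf1rKD mice. M149 was low for this gene but not for mt-Co1. The log2 fold change of mt-Co2 was -0.17 ± 0.63 (SE), and it turned to 0.05 ± 0.45 when the counts of Gm28661 were added, so its direction depended on the division of counts.

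For ATP synthase, mt-Atp6, part of the proton channel, was at 2475, 2504, 224 and 2376 CPM in the βIgf1r mice and 2652, 230, 1751 and 2356 CPM in the βIgf1rKD mice (log2 fold change -0.12 ± 0.78, SE). Its neighbour mt-Atp8 was at 435, 435, 18.7 and 410 CPM and at 431, 22.0, 315 and 415 CPM (log2 fold change -0.13 ± 0.92, SE). Both were far lower in M152 and M146, and M149 was the lowest of the other mice. For mt-Atp6 the copy held 23.0% of the pair's counts in M149, against 5.44% to 13.3% in the remaining mice. With the copy added mt-Atp6 was at 2274 CPM in M149, against 2514 to 2855 CPM in the remaining mice, so part of this gap was the division of counts. mt-Atp8 spread most of the mRNAs, 23.3-fold from the lowest to the highest mouse.

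**Figure D3:**
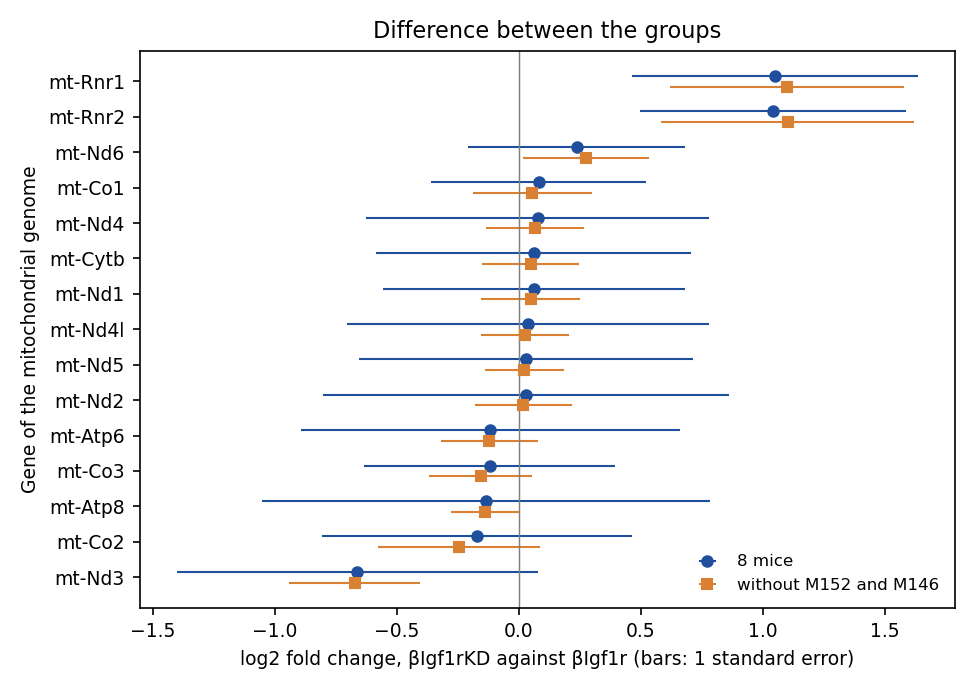
Log2 fold change of βIgf1rKD against βIgf1r islets for the 15 genes, with bars of 1 standard error, over the 8 mice (circles) and without M152 and M146 (squares). The bars of the 13 mRNA genes over the 8 mice cross 0 and span 0.44 to 0.92 to each side, and mt-Nd3 (-0.66), mt-Rnr1 (1.05) and mt-Rnr2 (1.04) lie farthest from 0.

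The rRNAs had the largest fold changes, and these rested on 1 mouse. mt-Rnr1, the small-subunit rRNA, was at 71.8, 74.2, 26.1 and 76.3 CPM in M148, M151, M152 and M153 and at 307, 38.3, 90.9 and 79.0 CPM in M145, M146, M149 and M150. The large-subunit rRNA mt-Rnr2 was at 176, 164, 79.9 and 186 CPM and at 754, 118, 182 and 194 CPM. M145 was 4.08-fold and 4.21-fold above the 8-mouse median for the rRNAs, while its mRNA genes were near the other mice. The log2 fold changes were 1.05 ± 0.58 (SE, edgeR adjusted p = 0.986) for mt-Rnr1 and 1.04 ± 0.55 (SE, edgeR adjusted p = 0.986) for mt-Rnr2. Without M145 they were 0.16 and 0.12. Without M146 they were 1.35 and 1.31, both with an unadjusted p under 0.05, as for 6.12% of all genes, and an edgeR adjusted p of 0.807. Without M146 mt-Rnr1 was also the 1 gene of the 15 whose groups did not overlap, against 5.8% of all genes, and this was so without both M152 and M146 too, against 13.5% of all genes. With both left out, acinar and β-cell marker shares did not overlap between the groups either. With no filter on low counts mt-Rnr2 alone of the 15 had an unadjusted p under 0.05, against 3.96% of the 27738 genes then fitted. The rRNA genes made up 3.28% of the mitochondrial counts in M145, 1.94% in M152, 2.27% in M146 and 0.789% to 1.13% in the other 5 mice. The acinar marker share was 19.0% in M145, within 5.36% to 21.1% in the other βIgf1rKD mice. With an acinar score as a covariate the log2 fold changes were 0.74 for mt-Rnr1 and 0.76 for mt-Rnr2. The part of acinar RNA in the rRNA level of M145 itself was not tested.

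In M152 the 13 mRNA genes had a median log2 deviation of -2.73 from the 8-mouse median, and in M146 of -2.62. The deviations were uneven. mt-Atp8 was at 0.0454 of its median in M152 and 0.0535 in M146 (-4.46 and -4.22 on the log2 scale), mt-Nd2 was at -3.79 and -3.33 and mt-Atp6 at -3.40 and -3.36, whereas mt-Co1 was at -1.55 and -1.25 and mt-Nd6 at -1.29 and -1.40. Of the rRNAs, mt-Rnr1 was at -1.53 and -0.97 and mt-Rnr2 at -1.16 and -0.60. As a result mt-Co1 made up 47.5% and 46.6% of the mitochondrial mRNA counts in these mice, against 27.0% to 33.6% in the other 6, and mt-Atp8 made up 0.349% and 0.327%, against 1.32% to 1.66%.

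This pattern was measured against nuclear genes of the same libraries. Among the 6154 genes with a mean of at least 20 CPM, 14 of which are mitochondrial, 12 of the 20 most reduced genes of M152 and 9 of the 20 most reduced genes of M146 were mitochondrial, and so were 1 of 20 in M149 and 0 of 20 in the other 5 mice. The 80 nuclear-encoded subunits of the respiratory chain and ATP synthase had a median deviation of 0.04 in M152 and -0.01 in M146. AT-rich nuclear genes were slightly lower in the same mice. The 893 genes with a transcript GC content of 35 to 40% had a median deviation of -0.25 in M152 and -0.23 in M146. It was -0.39 and -0.37 for the 38 genes below 35% GC, and 0.20 and 0.22 for the 665 genes of at least 60% GC. For the 100 nuclear genes of 31 to 42% GC with a mean of at least 100 CPM it was -0.11 and -0.14. The 13 mitochondrial mRNAs lie at 31.9% to 41.1% GC. Over these 13 genes, all read from the same library, the Spearman correlation of GC content and deviation was 0.26 in M152 and 0.47 in M146. Acinar markers held 18.2% of M152 and 5.36% of M146, the former among the higher and the latter among the lower shares of the 8 mice. The part of base composition, RNA quality or acinar RNA in the low mitochondrial share was not tested.

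**Figure D4:**
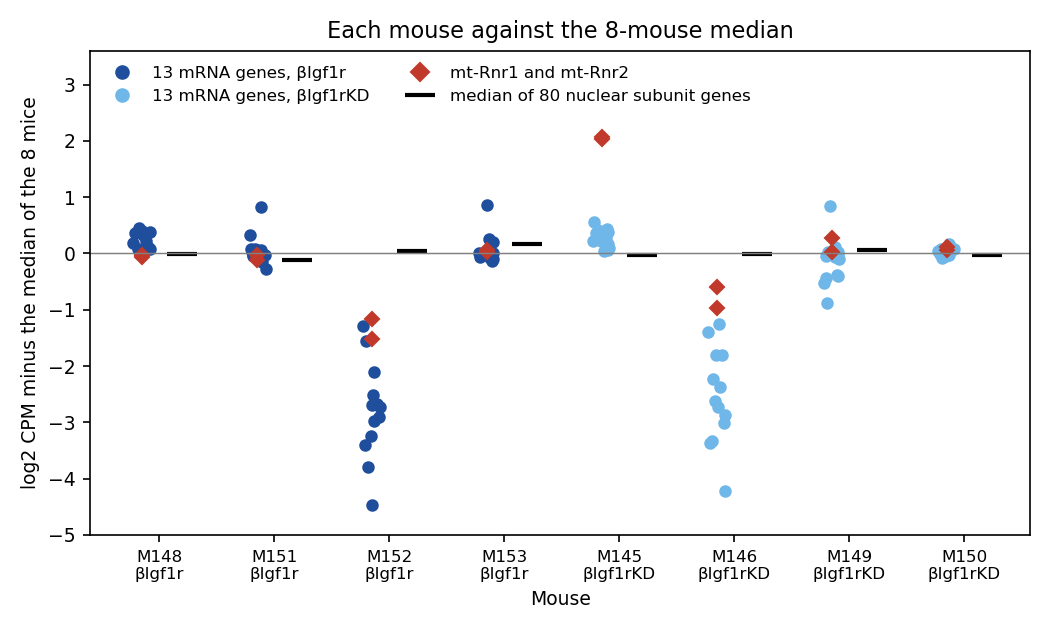
Log2 CPM of each gene minus its median over the 8 mice, for the 13 mRNA genes (circles), the 2 rRNA genes (red diamonds) and, as a black bar, the median of 80 nuclear-encoded subunits. The mRNA genes of M152 and M146 lie at medians of -2.73 and -2.62 while the nuclear medians stay at 0.04 and -0.01, and only the rRNA genes of M145 are above 2.

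Ratios between genes of 1 library do not depend on its total. The ratio of mt-Atp8 to mt-Atp6, which share 1 transcript, was 17.6%, 17.4%, 8.32% and 17.3% in M148, M151, M152 and M153 and 16.2%, 9.58%, 18.0% and 17.6% in M145, M146, M149 and M150. The other 6 mice lay between 16.2% and 18.0%, and M152 and M146 stood well below them. The log2 difference between groups was 0.04 (exact two-sided permutation test, p = 0.743), and it was -0.01 without M152 and M146.
The ratio of mt-Nd6 to mt-Nd5, which lie on opposite strands, was 0.575%, 0.449%, 1.71% and 0.684% in the βIgf1r mice and 0.501%, 1.40%, 1.06% and 0.521% in the βIgf1rKD mice (log2 difference 0.09, exact two-sided permutation p = 0.914). Here M152 and M146 were the highest mice of their groups.
The ratio of mt-Rnr1 to mt-Rnr2, transcribed from the same region, was 40.9%, 45.2%, 32.7% and 41.0% against 40.7%, 32.5%, 49.8% and 40.8% (log2 difference 0.03, exact two-sided permutation p = 1). M145 did not stand apart in this ratio, since both of its rRNAs were raised alike.
The ratio of mt-Rnr2 to mt-Co1 was 1.84%, 2.28%, 3.14% and 2.68% against 8.47%, 3.76%, 2.27% and 2.52% (log2 difference 0.59, exact two-sided permutation p = 0.286), with M145 the highest. Adjusted over the 4 ratios each p was 1, and 4 against 4 mice allow no p below 0.0286. The 4 ratios showed differences between mice that the group labels did not follow.

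The division of counts between chrM genes and their copies also differed between mice. The copy held 39.4% to 77.3% of the counts of the pair mt-Co2 and Gm28661, with a median of 59.2%, and 34.6% to 72.1% of mt-Nd3 and Gm28438, with a median of 62.7%. For mt-Co2 the copy held 60.2%, 39.4%, 77.3% and 41.98% in M148, M151, M152 and M153 and 40.6%, 65.4%, 74.5% and 58.1% in M145, M146, M149 and M150, so the groups overlapped. M149, in which mt-Co2 was low, gave 74.5% of the pair to the copy, and the pair together was at 3424 CPM, among 3319 to 4306 CPM in the other mice outside M152 and M146. The copies of mt-Atp6 and mt-Co3 held 5.44% to 24.5% and 1.44% to 17.1%. The copy of mt-Co1, which is shorter than the gene, held a steady 10.8% to 12.6%. The copies of mt-Nd4 and mt-Nd4l held no counts in any mouse, although they match their genes at every aligned base. With all 7 copies added, the mitochondrial share was 4.49%, 3.55%, 0.608% and 2.82% in the βIgf1r mice and 2.86%, 0.973%, 2.44% and 2.95% in the βIgf1rKD mice, and M152 and M146 remained the lowest.

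**Figure D5:**
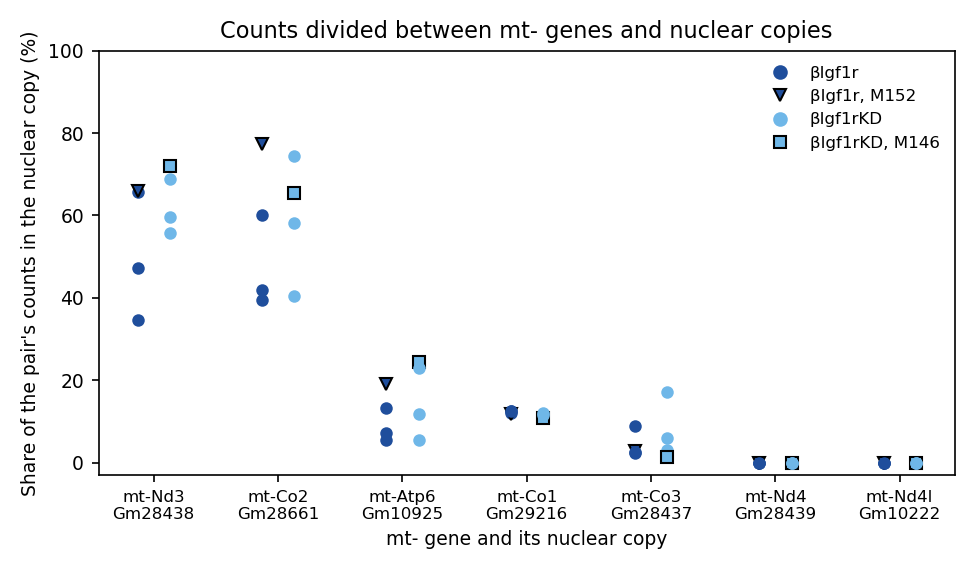
Share (%) of the counts of each pair of chrM gene and chromosome 1 copy that was given to the copy, by mouse and group. The copy's share spans 34.6% to 72.1% for mt-Nd3 and 39.4% to 77.3% for mt-Co2, is 10.8% to 12.6% for mt-Co1 and is 0 for mt-Nd4 and mt-Nd4l.

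Nuclear genes that act on the mitochondrial genome were counted in 5 lists of mitochondrial gene expression: transcription (11 genes tested), replication and maintenance (20), RNA processing and stability (31), translation factors (20) and regulators of biogenesis (14). Of these 95 different genes, 3 had an unadjusted p under 0.05 and a higher level in βIgf1rKD islets, against 2.23% of all genes higher, 0 were lower (1.89% of all genes), and 0 had an adjusted p under 0.05 by edgeR. Their median log2 fold change was 0.04, against 0.01 over all genes, with 58 positive and 37 negative values.
Mtrf1l, a release factor of mitochondrial translation, was at 5.74, 5.49, 4.62 and 5.35 CPM in M148, M151, M152 and M153 and at 7.15, 7.17, 6.78 and 7.12 CPM in M145, M146, M149 and M150, so that all 4 βIgf1rKD mice lay above all 4 βIgf1r mice (log2 fold change 0.41 ± 0.11, SE, edgeR adjusted p = 0.986). Mgme1, an exonuclease of mtDNA replication, was at 5.69, 5.67, 5.94 and 5.49 CPM against 7.34, 8.17, 6.13 and 7.93 CPM, again without overlap (0.38 ± 0.12, SE, edgeR adjusted p = 0.986). Of all genes tested, 2.22% had groups that did not overlap, and Mtrf1l and Mgme1 were named for their unadjusted p under 0.05.
These genes were low and their differences did not pass the adjusted threshold. Pprc1, a coactivator of the PGC-1 family, had a log2 fold change of 0.35 ± 0.15 with overlapping mice (SE, edgeR adjusted p = 0.986). In the transcription and RNA processing lists no gene had an unadjusted p under 0.05. Their largest values were -0.26 ± 0.32 for Mterf1b, of the family of mitochondrial termination factors, and 0.26 ± 0.14 for Fastkd5, which takes part in maturation of mitochondrial mRNAs.

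Of the 80 nuclear-encoded subunits of the respiratory chain and ATP synthase, 0 had an unadjusted p under 0.05 by edgeR, against 4.12% of all genes, and 0 had an adjusted p under 0.05, against 0.0%. By sign 37 were higher and 43 lower in βIgf1rKD islets, with a median log2 fold change near 0 (-0.00485). The values farthest from 0 in each complex were -0.18 ± 0.10 (SE) for Ndufc2 of complex I, -0.15 ± 0.08 for Sdhd of complex II, -0.16 ± 0.09 for Uqcr10 of complex III, -0.40 ± 0.34 for Cox4i2 of complex IV and -0.36 ± 0.38 for Atp5g2 of ATP synthase, all with overlapping mice. The low levels of the mitochondrial mRNAs in M152 and M146 were not accompanied by low median levels of their nuclear partners. Median deviations by complex lay between -0.07 and 0.07 in these mice. Single subunits could depart from the median: Atp5g2 was at 1.46 CPM in M152, against 3.18 to 6.91 CPM in the other mice, with M146 at 3.85 CPM.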

How the data were processed

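Islets were kept separate by mouse, RNA was purified with the RNeasy Micro kit, and libraries were made with a stranded kit that selects poly(A) RNA. The authors deposited 1 table of expected counts (estimated counts that need not be whole) per Ensembl gene and mouse, and all 8 columns were used. The submitters' processing notes name fastp, kallisto and GRCm38. The annotation, the strand setting and the way transcripts were summed to genes are not given in the sources used here. Symbols came from a GENCODE M21 table, which matched 51906 of the 53012 identifiers (97.9%).

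Counts were rounded to integers before fitting. Groups came from the sample titles. Genes were kept by filterByExpr (minimum count 10, total 15, in 4 mice), scaled by TMM and tested with edgeR 4.0.16 (glmQLFit, glmQLFTest, R 4.3.3) over the 8 mice, with Benjamini-Hochberg adjustment over all 15474 genes tested. Log2 CPM used a prior count of 2. Libraries of 21633925 to 42391106 counts set the precision, and no p was computed for sums over the mt- genes. The 4 ratios were compared by exact two-sided permutation over the 70 assignments of mice with Python 3.11.15. Copies were found by matching 31-base words of annotated transcripts, with at least 90% shared for a full copy. The fit was also run on simulated counts, drawn for each gene independently. They held no libraries in which the mt- genes fell together as in M152 and M146, so they do not describe the test for these genes.

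Alternatives were RLE scaling, TMM without mt- genes, DESeq2 1.42.0, no filter, a filter of 10 counts in every mouse, an acinar score or Xist as covariate, copies added, other totals, and each mouse left out. Named genes were the 13 mRNA and 2 rRNA genes, with tRNA genes given by range and counts (mt-Tl1, mt-Tc and mt-Tm were named after their values were seen), and of each nuclear list those with an unadjusted p under 0.05 or else the gene with the largest fold change. Of listed symbols, 8 were not matched in the table. The list of nuclear copies also held Gm10288 (log2 fold change 0.76 ± 0.46, SE, edgeR adjusted p = 0.986), which shares no 31-base word with mt- genes. The mt- genes and the lists were chosen with earlier results of these data known. Mice are separate animals, and no paired analysis was possible because the groups share no replicate numbers.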

Additional observations from a re-analysis of the deposited data

Results flagged for a closer look

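In groups of 4 mice, a value was listed when the gap to its nearest neighbour took a larger part of the group's whole range than Dixon's critical value for 4 samples. This was so for 24 of the 66 groups tested, where chance gives about 1 in 20. Each sentence gives the value of the mouse that stood apart.

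M152, of the βIgf1r group, stood below the other 3 mice in log2 CPM for mt-Rnr1 (4.71), mt-Rnr2 (6.32), mt-Nd2 (6.48), mt-Co2 (7.92), mt-Atp8 (4.23), mt-Atp6 (7.81), mt-Co3 (9.90), mt-Nd4l (4.84), mt-Nd4 (8.03), mt-Nd5 (7.80) and mt-Cytb (8.83). M146, of the βIgf1rKD group, stood below the other 3 mice in log2 CPM for mt-Nd1 (8.49), mt-Nd2 (6.94), mt-Co1 (11.61), mt-Atp8 (4.46), mt-Atp6 (7.84), mt-Nd4l (5.22), mt-Nd4 (8.37), mt-Nd5 (7.98) and mt-Cytb (9.15). The same mice stood low in the log2 ratio of mt-Atp8 to mt-Atp6, at -3.59 in M152 and -3.38 in M146. These groups of values come from the same libraries and are not independent of each other. Neither mouse was listed for the share of its library in mt- genes.

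M145 stood high in the βIgf1rKD group for the share of the library in rRNA genes of the mitochondrial genome (0.0852%). Among the named nuclear genes, Mtrf1l was low in M149 (log2 CPM 2.78) against the other βIgf1rKD mice, whose values lay from 2.85 to 2.86.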

How the results depend on the processing

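No mt- gene had an adjusted p under 0.05 in any fit that was run. The count of mt- genes with an unadjusted p under 0.05, 0 over the 8 mice, was 0 to 2 with 1 mouse left out (2 without M146, mt-Rnr1 and mt-Rnr2), 1 without both M152 and M146 (mt-Nd3, chosen after seeing the data) and 1 with no filter on low counts (mt-Rnr2). The count of mt- genes whose groups did not overlap was 0 to 1 with 1 mouse left out (1 without M146) and 1 without both. The nuclear lists held 181 tested genes, 6 of them from the list of nuclear copies of mtDNA. Of these 181 genes, 3 had an unadjusted edgeR p under 0.05 over the 8 mice (1.66%, against 4.12% of all genes). This count was 2 to 10 with 1 mouse left out (10 without M152, 5.52% against 7.09%). It was 10 without M152 and M146, with Gm10288 among them (5.52% against 7.79%), and 11 with Xist as a covariate (6.08% against 7.38%). Each share was below that of all genes in the same fit. The difference in share ranged from -1.21 to -0.09 points with 1 mouse left out.

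With 1 mouse left out the log2 difference of the ratios ranged from -0.19 to 0.49 for mt-Nd6 to mt-Nd5, from -0.0698 to 0.135 for mt-Rnr1 to mt-Rnr2, from 0.19 to 0.82 for mt-Rnr2 to mt-Co1 and from -0.22 to 0.26 for mt-Atp8 to mt-Atp6. The last turned to -0.0433 with copies added and -0.0103 without M152 and M146.

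Of 255 log2 fold changes of the 15 genes under alternatives, 41 changed sign. With 1 mouse left out the ranges were -0.28 to 0.39 for mt-Nd1, -0.36 to 0.40 for mt-Nd2, -0.19 to 0.32 for mt-Co1, -0.63 to 0.11 for mt-Co2, -0.53 to 0.25 for mt-Atp8, -0.49 to 0.25 for mt-Atp6, -0.43 to 0.15 for mt-Co3, -0.33 to 0.40 for mt-Nd4l, -0.28 to 0.43 for mt-Nd4, -0.33 to 0.38 for mt-Nd5, -0.16 to 0.52 for mt-Nd6 and -0.28 to 0.39 for mt-Cytb. mt-Nd3 (-1.03 to -0.31), mt-Rnr1 (0.16 to 1.35) and mt-Rnr2 (0.12 to 1.31) kept their sign. With Xist as a covariate mt-Nd2, mt-Nd4l and mt-Nd5 were at -0.0302, -0.0348 and -0.0207, with copies added mt-Co2 was at 0.0454, and with the acinar score Atp5g2 and Mterf1b were at 0.0996 and 0.0568. The cause was not tested. No paired analysis was possible because the groups share no replicate numbers.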
